A study of Homo sapiens with 16 samples.

Results

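Regions of N6-methyladenosine (m6A) enrichment that cover a stop codon were described in 2 human prostate cancer cell lines. Of the 36970 regions in the deposited merged list, 5996 (16.2%) overlapped by at least 1 bp the stop codon of a canonical protein-coding transcript of GENCODE on hg38, on chromosomes 1 to 22 or X. Together they covered the stop codons of 6125 genes. Each region was listed under 1 of them, which gave 5995 transcripts, and 125 regions covered stop codons of more than 1 gene. The rule used position alone and no measured value. At its edge, 24 regions covered only part of a stop codon and 69 other regions ended within 10 bp of one; 6 and 25 of these were called in all 8 peak lists.

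C4-2B is an enzalutamide-sensitive prostate cancer line, and MDV-R is a resistant line that was derived from it by serial passage in the drug, so each line stands for a single derivation. Both are labelled WT, both were grown for 3 days, and the study's methods keep MDV-R in enzalutamide, an antiandrogen drug. Each line had 4 replicates with an anti-m6A immunoprecipitate (IP) and an unenriched input, and every IP had its own list of peaks. Whether the replicates came from separate cultures is not stated, so p-values measure only the spread between these libraries. The titles of the MDV-R samples carry the name of a bladder line, so the grouping rests on the field that names the cells. Of 9 prostate luminal and androgen-regulated markers 7 held an exonic region, and KLK2 and HOXB13 were among those called in all 8 lists. Of 6 urothelial markers only UPK3A held any, with calls in 4 MDV-R lists and 2 of C4-2B, while KRT8, KRT18, KRT5, KRT20, UPK1A, UPK1B and UPK2 held none in either line.

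m6A is placed on messenger RNA by a nuclear complex built around METTL3 and METTL14, mainly at the adenosine of short motifs such as GGAC. In most tissues it gathers around stop codons, in long internal exons and in the 3′ UTR. YTH-domain proteins read it, and the mark is known to shape RNA decay, export and translation. Antibody enrichment places a site within about a fragment length and does not resolve the single base, and a peak needs both the mark and enough transcript.

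The sequences below are the 30-nt windows around the GGAC nearest the middle summit of named regions. They show the motif where the enrichment was highest, on the strand of the gene, 5′ to 3′ on hg38, with GGAC in capitals. The first 4 come from the strongest regions.
TRIM56 (chr7:101088376-101088405, plus strand): atcctgggctcctGGACaagaactgccacc
RNF168 (chr3:196472184-196472213, minus strand): aacaagaagaacaGGACaggttattggcat
PHF3 (chr6:63713329-63713358, plus strand): ataggggtaaaggGGACcgccagagatttt
DIDO1 (chr20:62879559-62879588, minus strand): ggagccgagagcgGGACtgggaccggcccc
KLK2 (chr19:50878831-50878860, plus strand): tcagtttcagtgaGGACacacacaaagacg
ADAMTS1 (chr21:26837811-26837840, minus strand): ccgagacattaatGGACagcctgcttccga
THBS1 (chr15:39595704-39595733, plus strand): atctctgagcagtGGACtcaaaagcatttt
OLIG2 (chr21:33027879-33027908, plus strand): cgcggggaagcgaGGACtggcctgcgctgg
PIK3CA (chr3:179234296-179234325, plus strand): catcatggtggctGGACaacaaaaatggat
GATA2 (chr3:128480960-128480989, minus strand): tcccgggatgggtGGACcaaacccttagca

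The adenosine of GGAC lay 31 nt 5′ of the middle summit in KLK2 and 7 nt 5′ of it in THBS1. Relative to the stop codon it stood 289 nt downstream in KLK2 and 352 nt downstream in THBS1, and at −1187 nt, on the coding side, in TRIM56. In KLK2, RNF168, PIK3CA and GATA2 all 8 summits lay within 50 nt of it. These windows were picked for their nearness: over 64 named regions the nearest GGAC lay within 50 nt of the middle summit in 27. In SOX4, among the strongest regions, it lay 69 nt away.

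A second set shows the stop codon, in capitals, of regions with their middle summit within 30 nt of it.
HOXA13 (chr7:27198186-27198212, minus strand): aaaaccactagtTAAtggattaaaaat
S1PR3 (chr9:89002323-89002349, plus strand): atcttctgcaacTGAtcgtctccatgc
EGFR (chr7:55205603-55205629, plus strand): tttattggagcaTGAccacggaggata

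The genes differed from all canonical transcripts in the build of their last coding exon. The stop codon lay in the last exon of 98.8% of the 5995 transcripts against 95.4% of 19537, and the exon that holds it had a median length of 2234 nt against 1372 nt. The 3′ UTR was longer, with a median of 1727 nt against 1029 nt. TGA was the stop codon in 53.4% of them and 49.3% of all transcripts, and TAA in 23.6% and 28.2%. The 19537 include genes without any region. In 2620 genes with an exonic region but none over the stop codon, the stop codon lay in the last exon of 91.9%. Their median lengths were 1602 nt for that exon and 1342.5 nt for the 3′ UTR, with TGA in 46.2% and TAA in 32.5%. These shares and lengths are a description, with no test.

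Depth was recovered from the statistics of the peak caller. The IP libraries held 0.864 to 1.21 M tags (reads without duplicates) in C4-2B and 0.897 to 1.03 M in MDV-R. The inputs held 0.901 to 1.23 M and 1.6 to 2.97 M, so that input depth and line cannot be told apart in any comparison below. C4-2B replicate 1 stood apart, with 13191 peaks against 23254 to 30645 in the other 7 lists, and as the only library with more tags in the IP than in the input.

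Stop codon regions were called more often than regions in the 3′ UTR away from the stop codon or in the coding part of the stop exon. Those 2 classes were taken over all genes, so they are not matched by exon or gene. A region that reached a stop codon was counted there wherever its summit lay. They were called in 61.1%, 82.6%, 81.1% and 78.7% of cases in the C4-2B lists, replicates 1 to 4, and in 85.7%, 89.5%, 82.2% and 91.5% in the MDV-R lists. Of the 5955 called at least once, 3485 were called in all 8 lists (58.5%), where 25.9% of all regions called at least once were. They made up 37.4% of the 9327 regions called in all 8. Of 1831 regions with their strongest summit in the 3′ UTR away from the stop codon 437 were called in all 8 lists (23.9%), and of 928 with it in the coding part of the stop exon 326 (35.1%). Among those called at least once these shares were 24.5% and 35.6%. Only 41 stop codon regions overlapped no peak. The 45 and 11 regions of the other classes that overlapped no peak were placed by their midpoint.

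Within each list the called share of stop codon regions exceeded that of the 3′ UTR class by 26.0 ± 5.19 percentage points (81.5 ± 9.32% against 55.6 ± 14.2%, SD, n = 8 lists; exact two-sided sign-flip permutation p = 0.0078, higher in 8 of 8). The coding class had 63.4 ± 10.6%, and the difference of 18.1 ± 1.84 points was also positive in 8 of 8 (exact permutation p = 0.0078). That p is the smallest 8 lists can give, and it covers the spread between lists, since the lists share the regions. Stop codon regions were longer, with a median of 865 nt against 519 nt and 562.5 nt, and length bears on both the rule and the call. Among regions of 500 to 1000 nt, which held 2432 stop codon regions, the differences were 12.8 ± 4.11 and 6.48 ± 3.37 points (both positive in 8 of 8; exact permutation p = 0.0078).

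**Figure D1:**
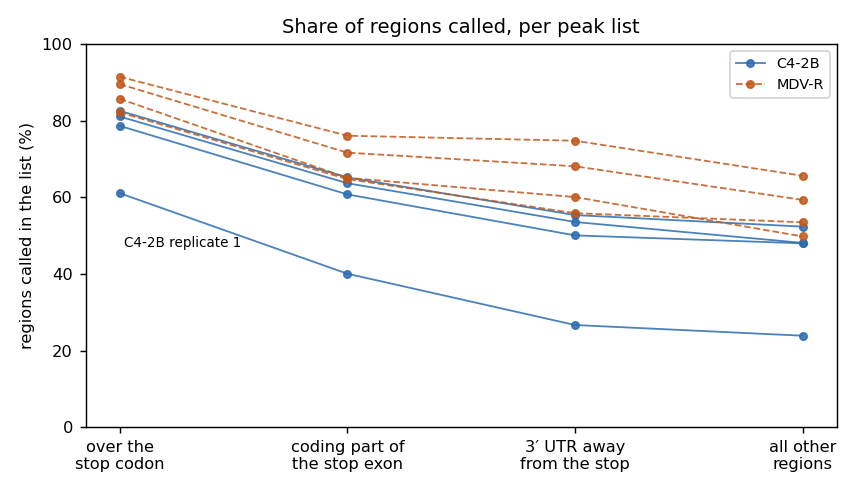
Share of regions called (%, y axis) in each of the 8 peak lists for regions over the stop codon, in the coding part of the stop exon, in the 3′ UTR away from the stop, and for all other regions (x axis); each line is a list. All 8 lines fall from 61.1% to 91.5% over the stop codon to lower values in the other classes, and C4-2B replicate 1 is the lowest throughout.

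Strength was taken as the percentile of the −log10 p of a region's strongest peak within its list. The median over called stop codon regions averaged 75.6 ± 3.13 (SD, n = 8 lists). It was 53.8 in the 3′ UTR class and 62.0 in the coding class, lower by 21.8 and 13.5 percentile points in the same lists (8 of 8 each; exact sign-flip permutation p = 0.0078). At 500 to 1000 nt the differences were 11.3 and 3.42 points, again in 8 of 8.

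Between the lines, the called share averaged 75.9 ± 9.97% (SD, n = 4) over the C4-2B lists and 87.2 ± 4.12% over those of MDV-R, and by the exact permutation test the difference of 11.4 points missed the threshold (p = 0.0571, two-sided). All other regions moved likewise, from 43.1 ± 12.9% to 57.1 ± 6.92% (n = 4, exact permutation p = 0.0571). With all lists cut to as many peaks as the shortest one holds, the difference for stop codon regions was 3.91 points (exact permutation p = 0.0857), and without C4-2B replicate 1 it was 6.45. Without C4-2B replicate 2 it was 13.6, with an exact permutation p of 0.0286. Median strength was 73.9 ± 3.74 and 77.2 ± 1.31 (n = 4, exact permutation p = 0.114), a difference of 3.28 points that was 0.0237 with lists of equal size and 1.41 without C4-2B replicate 1.

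Summits gathered on both sides of the stop codon, with more on the coding side. Positions were counted along the spliced transcript from the first base of the stop codon, negative towards the coding sequence, for the 95.4% to 96.5% of summits in exons of the transcript. The 100 nt before the stop codon held 19.0 ± 0.687% of summits and the 100 nt from it on 16.6 ± 1.11% (SD, n = 8 lists). From there the share fell to 13.2% and 11.0% in the next 100 nt on the coding and UTR side, and to 3.84% and 3.55% between 300 and 400 nt. Each region covers a stop codon by rule, which bounds how far a summit can lie from it. In all, 44.5 ± 1.81% of summits lay at or downstream of the stop codon.

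In C4-2B the middle summit was at −35.6 ± 7.09 nt, and in MDV-R at −24.8 ± 7.54 nt (mean ± SD of 4 lists; p = 0.0857 by the exact permutation test). The share within 100 nt of the stop codon was 34.7 ± 1.35% over C4-2B lists and 36.9 ± 0.930% over MDV-R lists, without overlap (n = 4, p = 0.0286 by the exact permutation test, its lowest possible value, and 0.114 after adjustment over 12 measures). Neither passed after adjustment. Single regions had their summit at much the same place from list to list. Over 3250 regions with an exonic summit in all 8 lists, the SD of a region's 8 summits had a median of 34.7 nt, and it was under 50 nt in 64.3%.

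Where the summit fell differed with where the exon began. In genes with more than 1 exon, 1014 regions had their stop codon under 100 nt from the start of its exon. There the middle summit lay 127.5 ± 14.7 nt downstream of the stop codon, 83.2 ± 2.38% of summits lay downstream, and 1.23% fell in the exon before. With the stop codon from 100 to under 400 nt into the exon (3026 regions) the middle summit was at 11.1 ± 7.86 nt, and with 400 nt or more (1734 regions) at −234 ± 13.9 nt (SD, n = 8 lists). The 3 ranges over the lists did not overlap, running from 107 to 153.5 nt, from −1.0 to 22.0 nt and from −255 to −213 nt. Counted from the exon start, the middle summit stood at 188 ± 10.8, 209 ± 9.83 and 572 ± 7.94 nt. A summit upstream has less exon to fall in where the stop codon lies close to the start of its exon, and the part of this in the order was not tested. THBS1 has its stop codon 5 nt into exon 22 of 22, and its 8 summits lay 346 to 403 nt downstream.

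**Figure D2:**
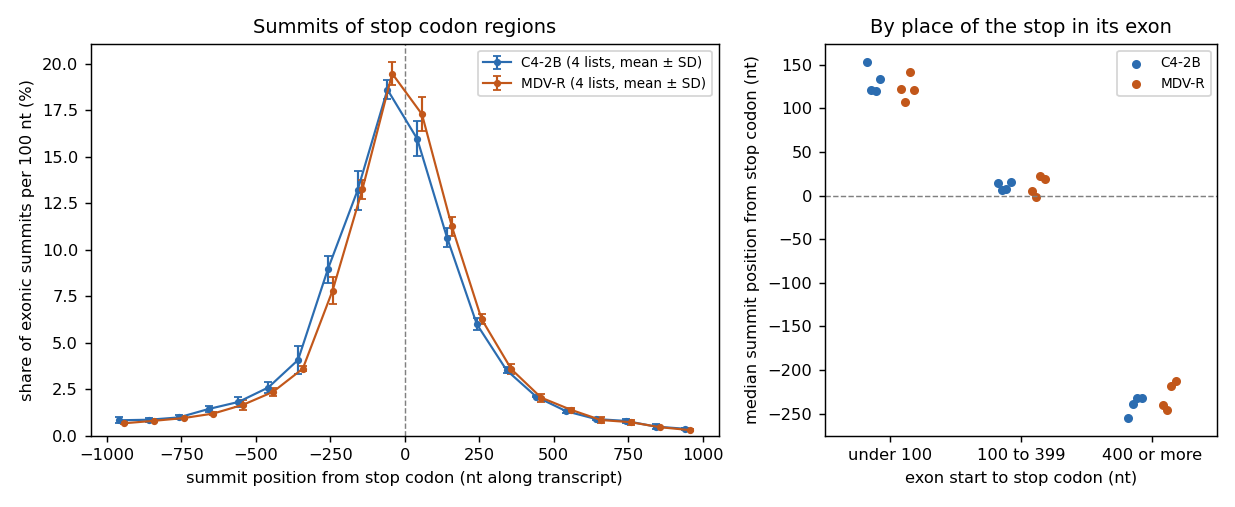
Left, share of exonic summits of stop codon regions per 100 nt (%, y axis) by position along the transcript from the stop codon (nt, x axis, 0 is the first base of the stop codon), mean ± SD over 4 lists per line, with points offset sideways for visibility. Right, the median summit position (nt) per list by the distance from the exon start to the stop codon. Both lines peak in the 100 nt before the stop codon, and the medians run from above 100 nt downstream to below −200 nt upstream as the stop codon lies deeper in its exon.

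GGAC stood within 50 nt of 49.8 ± 1.26% of summits over stop codons (SD, n = 8 lists), read on the strand of the transcript. In windows of the same width 300 nt to either side the share was 28.5 ± 0.444%, and on the opposite strand at the summit 26.6 ± 0.440%. The far windows were taken along the genome and not the spliced transcript, so some lie in introns. Both differences, 21.3 ± 1.44 and 23.2 ± 1.41 points, were positive in 8 of 8 lists (exact sign-flip permutation p = 0.0078). Summits of the 3′ UTR class had GGAC in 43.6 ± 2.22% and those of the coding class in 39.9 ± 1.29%, lower by 6.16 ± 1.63 and 9.90 ± 1.46 points (8 of 8 each; exact permutation p = 0.0078). Within stop codon regions it was 52.0 ± 1.82% for summits within 100 nt of the stop codon, 47.1 ± 0.823% further into the coding sequence and 52.6 ± 1.26% further into the 3′ UTR. C4-2B had 49.6 ± 0.775% and MDV-R 49.9 ± 1.75% (n = 4, exact permutation p = 0.771). Stop codon regions were also stronger and longer than the other classes, and GGAC was not compared at like strength or length. A match of 4 letters is no evidence that the site is methylated.

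By mean percentile the 10 strongest regions included TRIM56 and RNF168 (E3 ubiquitin ligases of antiviral signalling and of the DNA damage response), SOX4 and ZBTB7B (transcription factors), PHF3, DIDO1, RBM12B, RETREG1 (an endoplasmic reticulum autophagy receptor) and GMEB2. The highest mean was 99.98, at TRIM56. At TRIM56, 171 to 192 tags covered the summit in C4-2B and 180 to 200 in MDV-R. The fold enrichment (the height of the IP over that of the local background, with 1 added to each) was 26.9, 28.6, 33.9 and 55.3 in C4-2B and 39.3, 56.2, 29.8 and 63.5 in MDV-R. The lines overlapped, with a log2 difference of −0.02 ± 0.25 (SE; limma adjusted p = 0.981). Its 8 summits lay between −1155 and −1128 nt. SOX4, a gene of 1 exon, had its summits 737 to 762 nt downstream.

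By calls, 40 stop codon regions were found in all 4 C4-2B lists and no MDV-R list, which is 0.672% of the 5955 called at least once, against 1.22% of all regions. The reverse held for 161 (2.7%), against 3.68% of all regions. Both shares were below that background. No region passed Fisher's exact test after Benjamini-Hochberg adjustment over 36076 regions (0% called, lowest adjusted p = 0.584), while these 201 stop codon regions had an unadjusted exact p of 0.0286, the smallest possible. Without C4-2B replicate 1 the first count was 74, and without MDV-R replicate 3 the second was 246. Between these extremes, 699 regions were called in 4 MDV-R and 3 C4-2B lists, and 30 in 4 C4-2B and 3 MDV-R lists.

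**Figure D3:**
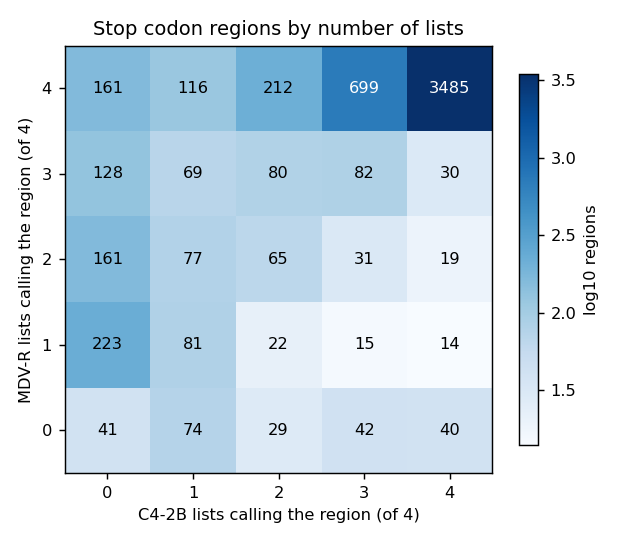
Number of stop codon regions by how many C4-2B lists (x axis, 0 to 4) and MDV-R lists (y axis, 0 to 4) call them; the colour is log10 of the number. 3485 regions lie in the corner called by all 8 lists, 161 are called by 4 MDV-R lists alone and 40 by 4 C4-2B lists alone.

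Of the regions called in C4-2B alone the strongest were over HOXA13 (a homeobox factor), PDZRN4, TMEM100 and ST6GALNAC1 (a sialyltransferase). At HOXA13 the fold enrichment was 24.5, 16.2, 40.1 and 18.8, with 88 to 97 tags at the summit. TMEM100 had 53 to 56 tags and fold enrichments of 14.3 to 27.3. Those called in MDV-R alone were over FSTL5, OLIG2 (a basic helix-loop-helix factor of oligodendrocytes), TENM2 (a teneurin), SHISA9 (an auxiliary subunit of AMPA receptors) and OPRK1 (the kappa opioid receptor). FSTL5 had 110 to 139 tags in the 4 MDV-R libraries and fold enrichments of 20.7, 25.4, 14.0 and 32.3. At OLIG2 they were 33.0, 32.2, 39.6 and 49.7, with summits 22 to 59 nt downstream of the stop codon. A region without a peak has no value in a list, so neither its m6A nor its transcript level is known there, and the absence of the transcript cannot be told apart from the absence of the mark.

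For regions called in all 8 lists the fold enrichment could be compared between the lines with limma, each list centred on its median over the 9327 tested regions. Of 3485 stop codon regions 37 were higher in MDV-R (1.06%, against 0.847% of all regions) and 31 lower (0.890%, against 1.79%). Without centring the split was 134 to 3, since the median over all tested regions stood at 0.44 (log2) before centring and 0.03 after it. Leaving out any 1 library gave 10 to 62 higher and 14 to 45 lower. Differences in fold enrichment below are centred, and the 1 added to both terms understates them where tags are few. The ratio was then taken apart into the IP tags at the summit per M tags of the library and the local background, which is estimated from the input around the summit and given in multiples of the average background of its library, with 1 as its floor.

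Among the 37 regions with higher fold enrichment, the local background was lower in MDV-R in 28 and higher in 2, and the IP tags were lower in 12 and higher in 7 (limma adjusted p under 0.05). Their median log2 differences were 1.02 in fold enrichment, −0.20 in IP tags and −1.69 in background. Among the 31 with lower fold enrichment, the IP tags were lower in 23 and higher in 3, and the background was lower in 4 and higher in 3, with medians of −1.17, −0.98 and −0.30. Both sets were picked on the ratio, so the choice itself favours shifts of its parts in the matching direction. These counts describe the picked regions and are no separate evidence. Over all 3484 stop codon regions with both parts, IP tags were higher in 648 (18.6%, against 19.8% of all regions) and lower in 373 (10.7%, against 14.7%), or 832 and 892 with each list centred; without C4-2B replicate 1 the lower ones numbered 863. The local background was higher in 63 (1.81%, against 1.66%) and lower in 417 (12%, against 11%), or 207 and 274 when centred, as its median difference over all regions was −0.48 (log2). Leaving out 1 library gave 138 to 1232 with lower background, the most without MDV-R replicate 3. Fewer marked molecules and a lower share of marked molecules cannot be told apart from IP tags alone.

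**Figure D4:**
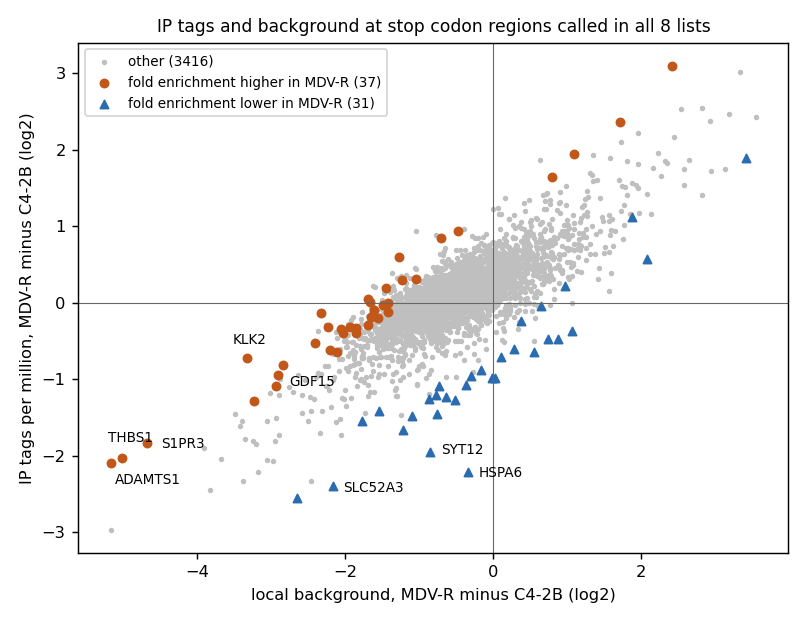
Log2 difference between MDV-R and C4-2B in local background (x axis) and IP tags per M (y axis) for stop codon regions called in all 8 lists; each point is a region, circles mark the 37 with higher and triangles the 31 with lower fold enrichment in MDV-R. Most circles lie left of 0 on the background axis, and most triangles lie below 0 on the tag axis.

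The largest rises in fold enrichment were at ADAMTS1, KLK2, THBS1, S1PR3 and GDF15. At ADAMTS1 (a secreted metalloproteinase; chr21:26837448-26838510, exon 9 of 9) it was 3.29, 5.21, 4.88 and 4.83 in C4-2B and 24.5, 24.2, 16.4 and 33.0 in MDV-R, higher by 2.01 ± 0.22 (log2, SE; limma adjusted p = 0.00014). IP tags per M went the other way, from 239 to 322 in C4-2B to 62.7 to 74.7 in MDV-R (−2.09 ± 0.16, adjusted p = 3.04e-14). The local background was 161 to 216 times the average in C4-2B and 3.55 to 9.38 times in MDV-R (−5.17 ± 0.40). Thus IP tags and background were both lower in MDV-R and the background more so.

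THBS1 (thrombospondin 1, a matrix glycoprotein; chr15:39595216-39596432) had the same order of values. Its fold enrichment was 4.86, 7.67, 11.1 and 8.71 in C4-2B and 28.6, 31.7, 27.3 and 44.4 in MDV-R (1.66 ± 0.23, limma adjusted p = 0.00141). On the log2 scale IP tags differed by −2.03 ± 0.16 and the background by −5.01 ± 0.44. These THBS1 summits lay in the 3′ UTR. There the study reported a peak without a statistical difference between the lines, and the peak it assayed was in an exon. The study tested counts with further filters, so its result and the ratio here are unlike measures. It also reported lower THBS1 mRNA (RNA-seq and RT-qPCR) and protein (western blot) in MDV-R than in C4-2B. At S1PR3, a receptor for sphingosine 1-phosphate, the 3 differences were 1.56, −1.83 and −4.68. At GDF15, a secreted factor of the TGF-β family, they were 1.31, −0.95 and −2.90, and its call was lost without MDV-R replicate 4 (limma adjusted p = 0.0501). In all of these the groups did not overlap in fold enrichment.

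The largest falls were at HSPA6, SYT12, SLC52A3, SMIM10L2B and RNF126. HSPA6 (a heat-inducible HSP70 chaperone; chr1:161524781-161526715) had fold enrichments of 23.7, 35.9, 44.2 and 18.3 in C4-2B and 5.79, 9.90, 8.19 and 7.41 in MDV-R (−2.31 ± 0.29, limma adjusted p = 0.000385). Here the tags at the summit went from 47 to 57 in C4-2B to 9 to 12 in MDV-R, while the background lay near its floor in both lines, at 1 to 6.57 and 1 to 2.42. HSPA6 and SMIM10L2B have near-identical copies elsewhere in the genome, so reads that map to both are lost and their values are uncertain.

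SLC52A3, a riboflavin transporter, had 58 to 74 tags in C4-2B and 11 to 13 in MDV-R, and fold enrichments of 23.7, 38.7, 19.6 and 23.2 against 9.23, 10.7, 8.94 and 10.0 (−1.79 ± 0.26, limma adjusted p = 0.00197). Its background was at the floor in all 4 MDV-R libraries. SYT12, of the synaptotagmin family, fell by 1.85 ± 0.32 on the log2 scale (limma adjusted p = 0.00668). At RNF126, an E3 ubiquitin ligase, the difference was −1.40 ± 0.26, but its strongest summits lay outside the exons of the transcript in all 4 C4-2B libraries and in MDV-R replicate 3 and within them in the other MDV-R libraries, so that different peaks were compared. Without centring HSPA6, SYT12 and SLC52A3 passed the threshold, and SMIM10L2B and RNF126 did not (adjusted p = 0.0674 and 0.0761).

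**Figure D5:**
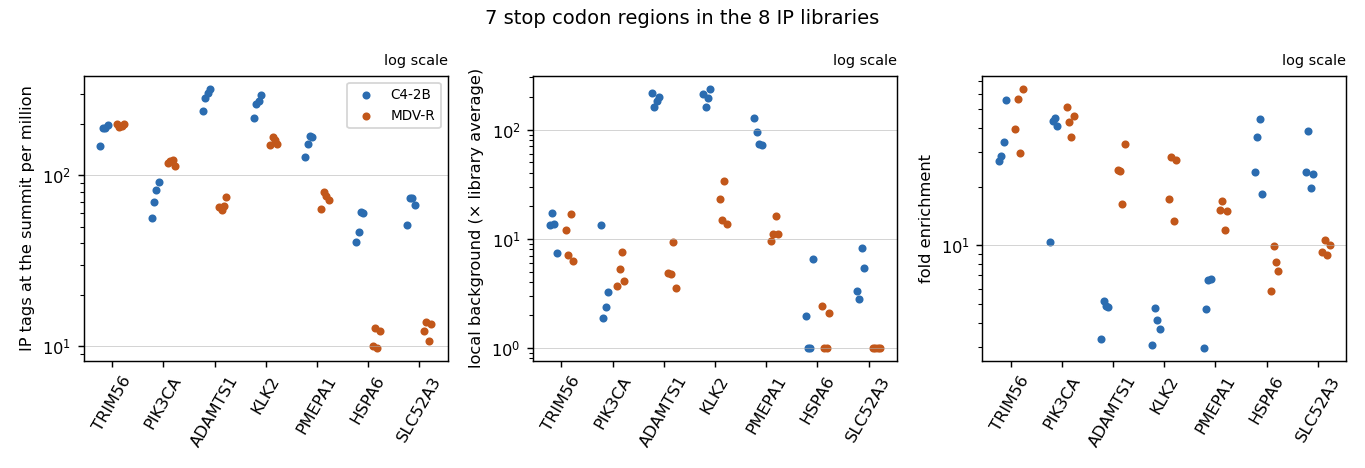
IP tags at the summit per M, local background as a multiple of the library average, and fold enrichment (y axes, log scales) of 7 stop codon regions (x axis) in the 4 C4-2B and 4 MDV-R libraries, 1 point per library. ADAMTS1, KLK2 and PMEPA1 have lower background and higher fold enrichment in MDV-R, HSPA6 and SLC52A3 have fewer IP tags and lower fold enrichment, PIK3CA has more IP tags, and TRIM56 overlaps in all 3 panels.

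Genes of the androgen axis had higher fold enrichment in MDV-R where they passed the threshold. Of 27 genes of a list of the androgen axis 12 had a stop codon region. The list was chosen with earlier results of these data known, so its counts are a description and no independent evidence. Of the 7 regions called in all 8 lists, 4 had higher fold enrichment in MDV-R (6 without centring) and none lower, where 0.847% of all regions tested were higher. Fewer IP tags were found at 4 of the 7 (5 when centred) and more at none, where 14.7% of all regions had fewer. The background was lower at 6 under both scalings, where 11% of all regions were lower. The medians of the list were 0.98 for fold enrichment and −0.65 for IP tags, beside 0.11 and 0.07 over all stop codon regions tested. KLK2 (a secreted androgen-regulated protease; chr19:50878076-50879194, exon 5 of 5) had fold enrichments of 3.09, 4.78, 4.14 and 3.72 in C4-2B and 17.4, 28.2, 13.3 and 27.2 in MDV-R (2.00 ± 0.23, limma adjusted p = 0.000171). Its IP tags per M were 218 to 296 and 151 to 168 (−0.72 ± 0.16), and its background 161 to 236 and 13.6 to 33.8 (−3.32 ± 0.41).

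PMEPA1, an androgen-induced membrane protein, had fold enrichments of 2.98, 4.72, 6.63 and 6.70 in C4-2B and 15.1, 16.9, 12 and 15 in MDV-R, without overlap (1.15 ± 0.24, limma adjusted p = 0.0138). Its IP tags differed by −1.09 ± 0.16 and its background by −2.93 ± 0.39. CAMKK2, a kinase upstream of AMPK, had 0.71 (limma adjusted p = 0.0916). The KLK3 region was called in 4 MDV-R lists and in 3 of C4-2B and was not tested.

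The genes the study took to targeted assays were chosen on these samples, so their direction is not independent evidence. The peaks it assayed were in an exon of THBS1, in the 5′ UTR of GRHL2, and in the 3′ UTR and an exon of PARP10. Those of THBS1 and GRHL2 are thus not the summits described here. Of 12, 8 had a stop codon region and 4 were called in all 8 lists: THBS1, PARP10, GRHL2 and FLRT1. GRHL2, a grainyhead factor of epithelia, had its summits 2025.5 nt downstream of the stop codon in the middle, and differed by 0.79 (adjusted p = 0.108). PARP10, an ADP-ribosyltransferase, was higher by 1.08 ± 0.29 (limma adjusted p = 0.0492), a call lost without any 1 of 7 libraries (all but MDV-R replicate 2). Its strongest summits lay in exons of the transcript in C4-2B and outside them in all 4 MDV-R libraries. FLRT1 had more IP tags in MDV-R (0.85 ± 0.16, adjusted p = 4.4e-05), and its fold enrichment did not pass (0.60 ± 0.25, adjusted p = 0.204). Its strongest summits lay outside the exons of the transcript in all 4 C4-2B libraries and within them in MDV-R, so here too different peaks were compared. The 1 stop codon region of 14 neuroendocrine genes, at SYT4, was called in 3 lists of each line.

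Of 19 writers, erasers and readers of m6A 11 had a stop codon region, and the 7 called in all 8 lists could be tested. None of the 7 passed in fold enrichment, where 0.847% of all regions were higher and 1.79% lower, a count near those shares. None passed in IP tags or background, while 2 had fewer IP tags with each list centred. Of all regions 19.8% had more IP tags, 14.7% fewer and 11% a lower background. METTL16, a methyltransferase, lay at a mean percentile of 98.4, with IP tags per M of 128 to 164 in C4-2B and 155 to 180 in MDV-R. RBM15B, CBLL1 and YTHDF3 followed at 97.9, 95.2 and 93.1. Of 28 chromatin writers and remodellers 19 had a region and 13 were called in all 8 lists, with none past the threshold in fold enrichment (2 higher without centring), likewise near the shares over all regions. In IP tags none of the 13 passed, where 19.8% of all regions were higher and 14.7% lower. With each list centred 1 of the 13 was higher and 1 lower. The background was lower at 2 of the 13, against 11% of all regions. ARID1B, CREBBP, EP300 and NSD2 led at 96.8 to 99.1.

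Among 31 developmental and growth transcription factors 20 had a stop codon region, and 15 were called in all 8 lists. None of the 15 passed in fold enrichment, again near the 0.847% and 1.79% of all regions. IP tags were higher at 2 and lower at 1, against 19.8% and 14.7% of all regions. With each list centred they were higher at 2 and lower at 4. The background was lower at 4, against 11% of all regions. JUN had more IP tags in MDV-R (0.45 ± 0.16, limma adjusted p = 0.0214). FOS was called in 4 MDV-R lists and no C4-2B list, with 24 to 31 tags and fold enrichments of 5.82 to 12.8, and CTNNB1 in 3 and 0. FOS was the only 1 of the 20 regions called in all 4 MDV-R lists alone, as were 3.68% of all regions called at least once. Of 25 growth factor receptors and signalling inhibitors 17 had a region, and 10 were called in all 8 lists. None of the 10 passed in fold enrichment (1 higher without centring), near the 0.847% and 1.79% of all regions. IP tags were higher at 3 and lower at 2, against 19.8% and 14.7% of all regions. With each list centred these counts were 4 and 4. The background was lower at 3 of the 10, against 11% of all regions. PIK3CA, a catalytic subunit of phosphoinositide 3-kinase, had IP tags per M of 56.4, 69.3, 82.5 and 91.5 in C4-2B and 119, 121, 124 and 114 in MDV-R (0.69 ± 0.16, adjusted p = 0.000743). IRS1, an adaptor of the insulin receptor, went from 90.3 to 126 down to 48.9 to 54.7 (−1.14 ± 0.16, adjusted p = 1.98e-07), with a background lower by −2.22 ± 0.44. Their fold enrichments differed by 0.13 and −0.21 and did not pass. FGFR2 was called in the 4 MDV-R lists alone, with 14 to 19 tags, and SOCS1 in 3 of them. FGFR2 was the only 1 of the 17 regions called so, against 3.68% of all regions.

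Zinc finger genes of the ZNF series, mostly repressors of transcription, held 348 of the regions, over 347 of 508 genes (68.3%, against 30.7% of all canonical transcripts; 2 more share a region listed under another gene). Any region was held by 453 of the 508 genes, and by 10098 of all 19537, of which 5995 had one over the stop codon. Of the 348 regions, 286 were called in all 8 lists (82.2%, against 58.1% of all stop codon regions). Their stop codon lay far into its exon, at a median of 1422.5 nt, and their middle summit at −282.5 nt. Among genes with the stop codon 400 nt or more into the exon, 85.9% of 319 ZNF regions and 76.5% of 1415 others were called in all 8 lists, with median lengths of 1837 and 1336 nt. Of 286 tested, 1 was lower in fold enrichment, ZNF341 (−1.17 ± 0.27, limma adjusted p = 0.0258), which did not pass without centring (0.162) nor without any 1 of 5 libraries (C4-2B replicates 1 and 3, MDV-R replicates 1, 2 and 4), and none was higher. Over all regions tested 1.79% were lower and 0.847% higher, and without centring 3 of the 286 were higher. IP tags were higher at 44 of the 286 and lower at 39, against 19.8% and 14.7% of all regions. With each list centred these counts were 59 and 79. The background was higher at 2 and lower at 38, against 1.66% and 11% of all regions. ZNF844 and ZNF730 were called in all 4 C4-2B lists alone and ZNF575 and ZNF516 in all 4 MDV-R lists alone, 2 of 348 each, where 1.22% and 3.68% of all regions were. The ZNF844 region covers stop codons of 2 genes.

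Cytosolic ribosomal protein genes stood at the other end. Of 83 genes 13 had any region and 4 a stop codon region, and these were RPL41, RPL13, RPL13A and RPL7L1, the last a paralog with a name of the same form. RPL7L1 was the only one called in all 8 lists, higher in MDV-R in fold enrichment by 0.94 ± 0.22 (limma adjusted p = 0.0297, lost without any 1 of 6 libraries, all but C4-2B replicate 3 and MDV-R replicate 3). Many copies of these genes lie elsewhere in the genome, so their values from uniquely mapped reads are uncertain.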

How the data were processed

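MeRIP-seq libraries of C4-2B and MDV-R were processed by the authors. Per the processing notes and methods reads were aligned to hg38 (STAR 2.7.0), multi-mapped and duplicate reads were removed (SAMtools 1.10), and each IP replicate was set against input for peaks (MACS2 3.0.0a6, no model, extension of 100 nt, size of 300 Mb). The deposited lists give a summit, a fold enrichment (a ratio), −log10 p and −log10 q values and a score of 10 times −log10 q. The deposited merged list gives start and end alone, and how it was merged is not given in the sources used here.

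Stop codons came from GENCODE 44 (the authors used 39). A region was called where a peak overlapped it by 1 bp, and took the strongest peak of each list. IP tags and background were solved from the fold enrichment and the −log10 p, which gave a whole number of tags that met the −log10 p within a relative tolerance of 2e-05 in 99.99% or more of peaks, and in at most 0.0859% with a wrong scale. Peaks carry no strand, so genes on opposite strands cannot be told apart. Tests were exact two-sided permutation tests over 70 arrangements, sign-flip permutation tests over the 8 lists, Fisher's exact test, and limma 3.58.1 in R 4.3.3 with Benjamini-Hochberg adjustment over all regions tested. limma was tested on simulated data with 9327 regions for the fold enrichment: it recovered 16 of 100 regions changed by 1 (log2), 0 of 100 changed by 0.5, and made 0 false calls.

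Named were the 10 strongest regions, per line the 5 strongest called in that line alone, the 5 largest differences in each direction, and from each gene list those called unequally by 3 lists, those past the threshold and up to 4 of the strongest. Some regions that this rule names are not reported here. Members and lists were chosen with earlier results of these data known. Alternatives tried were a stricter list (−log10 q of 5 or more), lists of equal size, 50% overlap, any transcript, the nearest peak, genomic distance, DRACH, windows of 25 nt, scaling, filters, an offset, the replicate block and leaving out each library. The restriction to regions of 500 to 1000 nt, GGAC in the other classes and the grouping by exon start were added after seeing the data.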

Additional observations from a re-analysis of the deposited data

Results flagged for a closer look

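Within a group of 4 libraries, values were marked where the gap of 1 library to the nearest other was a larger share of the group's range than Dixon's critical value, which chance gives in about 1 group in 20. This held for 7 of 74 groups tested, and in all 7 the library was C4-2B replicate 1.

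In C4-2B replicate 1, 31.8% of peaks lay over stop codon regions, against 21.8% to 23% in the other C4-2B lists. The median percentile of its stop codon regions was 68.3, against 75.7 to 75.9, and 19.6% of them lay in the top 10% of the list, against 24.8% to 25.4%. It had 54.7% of summits within 200 nt of the stop codon, against 59.6% to 60%, and called 23.9% of other regions, against 48.0% to 52.4%. Fold enrichment in this library was 7.62 at ZBTB7B, against 14.8 to 15.9, and 20.6 at RETREG1, against 41.8 to 45.0. Its list was the shortest and its IP was deeper than its input; the part of either in these values was not tested.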

How the results depend on the processing

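Of 203 recomputed values, 170 kept their direction and call or, for counts, stayed within 1.5 times. The called-share differences between classes and the GGAC difference between summits and windows 300 nt away kept their direction and their side of the threshold under every alternative run; for GGAC between classes none was run. Without centring, higher and lower fold enrichment numbered 134 and 3. With each list centred, 892 regions had fewer IP tags, and the background was higher in 207 and lower in 274. Leaving out 1 library gave 10 to 62 regions with higher and 14 to 45 with lower fold enrichment (the 62 without MDV-R replicate 3), 284 to 863 with fewer IP tags (863 without C4-2B replicate 1), 31 to 57 with higher and 138 to 1232 with lower background (1232 without MDV-R replicate 3), 41 to 74 called in C4-2B alone and 162 to 246 in MDV-R alone. On leaving out 1 library the called-share difference ran from 6.45 to 13.6 points (13.6 with an exact permutation p of 0.0286 without C4-2B replicate 2) and the GGAC difference between lines, 0.330 points, from −0.329 (without MDV-R replicate 3) to 0.832. With lists of equal size they were 3.91 and 0.887. The cause of these shifts was not tested.

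Replicate numbers do not pair the samples (correlations of −0.0749 to 0.0251 for same-numbered libraries). With the number as a replicate block, 26 and 30 regions had higher and lower fold enrichment, 732 and 416 more and fewer IP tags, and 71 and 428 higher and lower background; the called-share difference had an exact permutation p of 0.125, the smallest that 4 pairs allow.

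Tag counts come from reads without duplicates. For pairs of libraries within a line, squared differences in tags over stop codon regions averaged 0.447 to 0.653 of counting error, and 3.56 to 3.83 between lines. C4-2B replicate 1 held 1.2 times the mean depth of its line but 0.979 times the mean tags per region, so tags per M are not proportional to depth. limma found few differences of 1 (log2) in simulated data, so a missed threshold does not show that values were alike.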
